A study of Mus musculus with 4 samples.

Results

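The Gimap genes encode GTPases of immunity-associated proteins, a family of GTP-binding proteins found mostly in lymphocytes. They comprised 8 of the 21883 protein-coding genes of the RefSeq table for mouse build GRCm38 (the same build as mm10), chosen by their symbol. All lie in a single cluster on chromosome 6, from 48647186 to 48770851, a span of 124 kb. The peaks described here are those of the 4 deposited ATAC-seq lists whose midpoint lay in the cluster or within 30 kb of it. There were 10 such peaks of 39718 in the list DP 1, 12 of 70385 in DP 2, 4 of 38808 in DN 1 and 1 of 33131 in DN 2. Merged where they shared at least 1 bp, they formed 14 of the 107621 regions of the genome.

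ATAC-seq uses a transposase to place sequencing adapters in open DNA, so a peak marks accessible chromatin. All 4 samples were thymocytes sorted from wild-type mice of the C57BL/6J strain, 5 to 7 weeks old. The 2 DP samples were CD4+CD8+ double-positive cells. The 2 DN samples were the earlier CD4-CD8- double-negative cells, sorted as CD25+ and, per the labels, CD44-/+. The labels do not state whether replicates are separate animals, so the spread between lists of a group may be only technical. The p-values given further on compare ways of dividing these 4 lists into groups. They do not measure that spread and say nothing about animals beyond these lists. Read depth is unknown because no counts come with the peaks, and the absence of a peak may reflect low coverage as well as closed chromatin.

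Several Gimap proteins sit on the membranes of organelles such as mitochondria, the endoplasmic reticulum or lysosomes, and the family is best known for its part in the survival of T and B cells. Loss of Gimap5 causes lymphopenia in rats and mice, and loss of Gimap1 in mice depletes mature lymphocytes. Between the DN and DP stages a thymocyte completes its T cell receptor beta chain, divides and begins to rearrange the alpha chain, and most DP cells later die unless they are positively selected.

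From low to high coordinate the genes run Gimap8, Gimap9, Gimap4, Gimap6, Gimap7, Gimap1, Gimap5 and Gimap3. By the strand of their promoters, 6 read toward higher coordinates and 2 (Gimap6 and Gimap3) toward lower ones. Zfp775, a zinc finger gene whose span reaches into the flank before Gimap8, was the only other protein-coding gene in the window. The promoter sequences below, from RefSeq on GRCm38.p6, hold 250 bases before and 50 after a gene's start site, read 5′ to 3′ along the gene. The first 4 belong to genes whose start lay under a peak in both DP lists, and Gimap5 is shown as a gene with no peak in any list. Capitals mark matches to any of the 11 short motifs described further on.
Gimap9 (chr6:48675885-48676184, + strand): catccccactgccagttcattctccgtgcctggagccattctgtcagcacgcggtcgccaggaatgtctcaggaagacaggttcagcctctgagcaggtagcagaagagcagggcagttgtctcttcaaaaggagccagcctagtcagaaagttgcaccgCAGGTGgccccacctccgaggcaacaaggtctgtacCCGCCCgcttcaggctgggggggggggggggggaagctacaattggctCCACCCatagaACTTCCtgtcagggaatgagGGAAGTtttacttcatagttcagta
Gimap6 (chr6:48708195-48708494, - strand): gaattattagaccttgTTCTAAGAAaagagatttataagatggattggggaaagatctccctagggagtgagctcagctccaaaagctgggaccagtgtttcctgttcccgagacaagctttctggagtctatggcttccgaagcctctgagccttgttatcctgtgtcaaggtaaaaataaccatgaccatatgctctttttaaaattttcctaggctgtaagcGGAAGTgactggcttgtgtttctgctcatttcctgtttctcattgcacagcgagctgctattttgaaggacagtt
Gimap7 (chr6:48718371-48718670, + strand): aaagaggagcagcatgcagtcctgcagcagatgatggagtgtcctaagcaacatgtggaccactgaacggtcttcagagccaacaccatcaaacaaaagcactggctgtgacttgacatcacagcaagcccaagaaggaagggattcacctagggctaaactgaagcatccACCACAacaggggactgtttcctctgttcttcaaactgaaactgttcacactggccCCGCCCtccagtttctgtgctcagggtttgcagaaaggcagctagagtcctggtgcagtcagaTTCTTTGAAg
Gimap1 (chr6:48738797-48739096, + strand): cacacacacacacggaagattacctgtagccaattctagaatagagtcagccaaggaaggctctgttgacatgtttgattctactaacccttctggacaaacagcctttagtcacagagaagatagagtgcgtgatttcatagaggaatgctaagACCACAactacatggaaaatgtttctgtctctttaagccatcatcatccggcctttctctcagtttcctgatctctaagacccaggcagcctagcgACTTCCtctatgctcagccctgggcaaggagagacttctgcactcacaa
Gimap5 (chr6:48745947-48746246, + strand): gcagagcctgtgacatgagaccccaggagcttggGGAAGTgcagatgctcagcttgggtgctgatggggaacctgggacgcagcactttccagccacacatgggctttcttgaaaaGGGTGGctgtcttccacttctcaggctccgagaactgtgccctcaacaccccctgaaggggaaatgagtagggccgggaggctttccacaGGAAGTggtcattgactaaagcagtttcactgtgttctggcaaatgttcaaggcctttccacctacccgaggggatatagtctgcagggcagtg

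The Gimap cluster held several times more peaks in DP than in DN thymocytes, and most of the sites found in both DP lists lay at gene starts. With its flanks it had 10 and 12 peaks in the DP lists, against 4 and 1 in the DN lists. The groups did not overlap, with means of 11 ± 1.41 in DP and 2.5 ± 2.12 in DN (SD, n = 2 each), a difference of 8.5 peaks. Of 13598 genome windows of the same width (184 kb) with a peak in any list, 27.8% also held more peaks in both DP lists than in both DN lists. An exact two-sided permutation test over the lists gave p = 0.333, the smallest that 2 against 2 samples allow.

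The DP lists are longer on average, and DP 2 is by far the longest. Per 10000 peaks of a list, the window held 2.52 and 1.70 peaks in DP 1 and DP 2, against 1.03 and 0.302 in DN 1 and DN 2. The groups still did not overlap on this scale (exact permutation p = 0.333), as was so for 20.7% of the genome windows. With every list limited to the 33123 best ranked peaks, the counts were 8 and 8 in DP and 2 and 1 in DN. Many peaks tie at the p-value where the lists were cut, and ties went by file order. Depending on that order the counts could be 8 to 10 in DP 1, 8 to 9 in DP 2, 2 to 4 in DN 1 and 1 in DN 2, still without overlap. Within the cluster alone, the DP lists held 9 and 10 peaks and the DN lists 4 and 1.

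**Figure D1:**
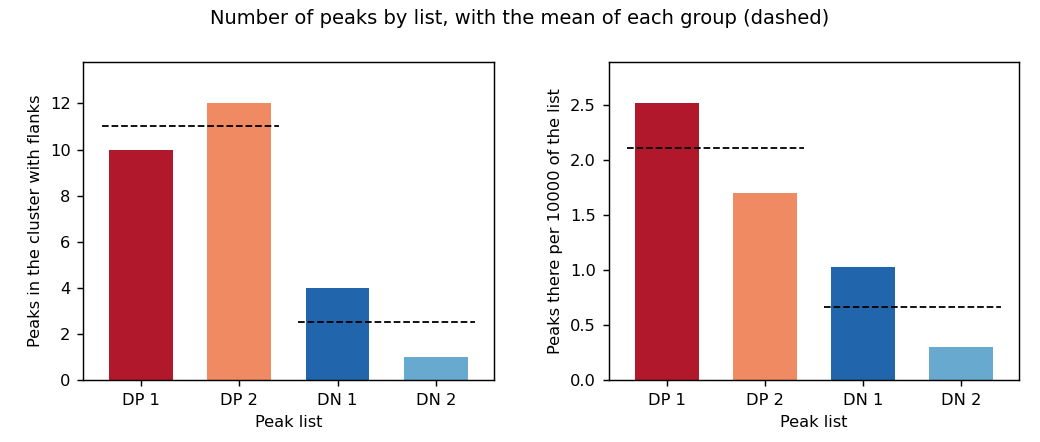
Bars give the number of peaks in the Gimap cluster with its 30 kb flanks in each list (left) and the same number per 10000 peaks of the list (right), and dashed lines the mean of each group (n = 2). Both DP lists (10 and 12 peaks) stand above both DN lists (4 and 1), on either scale.

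DP peaks also covered more of the cluster with its flanks. The covered length was 5300 and 6900 bp in DP 1 and DP 2, against 1300 and 500 bp in DN 1 and DN 2. Per Mb covered by the whole list, it was 278 and 228 bp in DP 1 and DP 2, against 76.6 and 37.9 bp in DN 1 and DN 2. The window's peaks had a median width of 575 bp in each DP list, where the median over the whole list was 450 and 400 bp. In DN 1 the median was 325 bp against 400 bp over the list, and the single DN 2 peak was 500 bp wide against 350 bp.

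Of the 14 regions, 6 were held by at least 2 lists, as were 28.2% of the 107621 in the genome. Among these, 3 were DP-only, meaning that both DP lists and neither DN list held them, where 26.4% of the genome's 30340 regions held by at least 2 lists were DP-only. Another 2 were held by both DP lists and DN 1. The remaining region was held by all 4 lists, as were 26.2% in the genome. There were 0 DN-only regions (both DN lists and neither DP list), a class that took 8.91% in the genome. Over all 14 regions these counts of 3, 1 and 0 stand against 7.44% DP-only, 7.39% in all 4 lists and 2.51% DN-only in the genome. The other 8 regions came from a single list, 3 from DP 1 and 5 from DP 2, and 0 were held by DN lists alone. Of the genome's 77281 single-list regions, 61.1% came from a DP list. A DP list held each of the 14, as was so for 69.5% of the genome's regions. With 1 list left out, the remaining list stands for its group, and leaving out DP 1 gave 8 DP-only regions, DP 2 gave 6, DN 1 gave 5 and DN 2 gave 3. The classes are then less strict, so the genome shares above, which are for 4 lists, are no baseline for these counts. Regions held by all remaining lists numbered 3 without DN 2 and 1 without any other list.

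**Figure D2:**
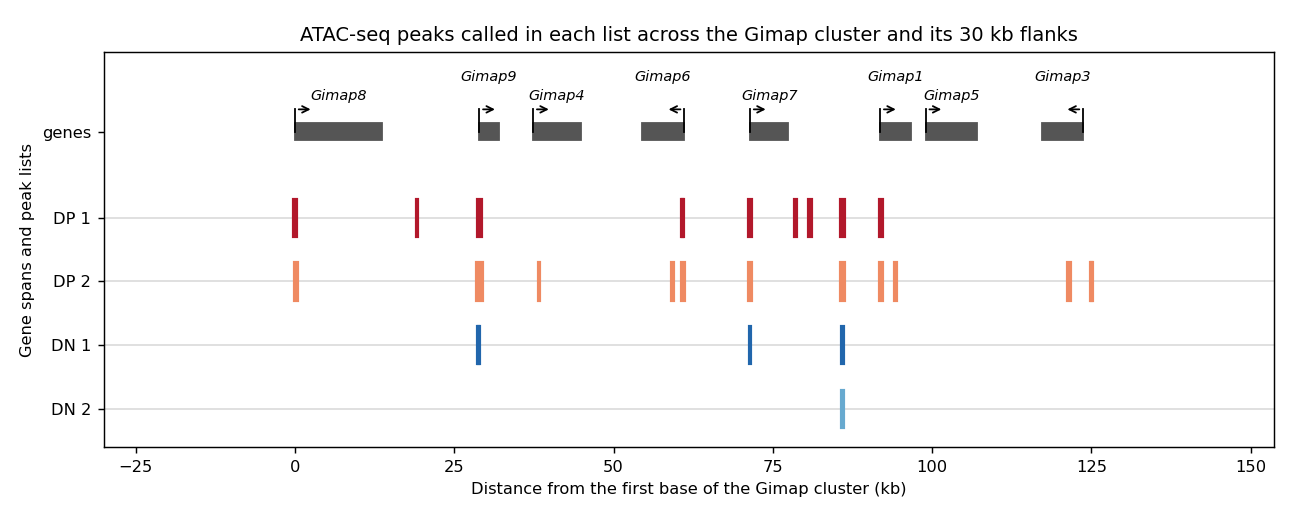
Coloured boxes mark the peaks of each list by distance in kb from the first base of the cluster, under the spans of the 8 Gimap genes with arrows at their starts. DP peaks line up over the starts of Gimap8, Gimap9, Gimap6, Gimap7 and Gimap1, and the only place with a peak in all 4 lists lies between Gimap7 and Gimap1.

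The DP-only regions lay at the starts of Gimap8, Gimap6 and Gimap1. Gimap8, which is unusual in the family for carrying several GTP-binding domains in a row, has a pair of annotated start sites, both within the region at chr6:48646851-48647700. The peak there was 600 bp wide in DP 1 and 750 bp in DP 2, and covered all 300 bases of both promoter windows in either list. Ranks are given within each list, since lists of different lengths and ties give no measure of change between them. The peak's p-value, the authors' own, was matched or bettered by 18.5% of the peaks of DP 1 and 35.7% of those of DP 2. Gimap8 also held a second peak in DP 1 alone (48666101 to 48666400), 5375 bp past its far end, at the largest p-value of that list.

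Gimap6, a regulator of autophagy in T cells, had its region at chr6:48707701-48708450. In DP 1 this place held a pair of overlapping peaks. Only the second (48707951 to 48708250) reached the promoter window, covering 56 of its 300 bases. In DP 2 a single peak covered 256. That peak and the second DP 1 peak reached the start site and extended into the gene. The better DP 1 peak, which ended before the promoter window, stood at 49.1% of its list, the lowest DP 1 rank among the 5 start regions. The DP 1 peak at the start site had the largest p-value of that list. The DP 2 peak stood at 26.9%. A further region inside Gimap6 (48706151 to 48706700) came from DP 2 alone, at 24.7% of that list.

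Gimap1, which mature T and B cells need to persist, had its start under the region at chr6:48738801-48739450. Peaks of 600 and 650 bp covered 296 of the 300 promoter bases in each DP list, against 0 in each DN list. They stood at 32.0% of DP 1 and 19.2% of DP 2. DP 2 alone held another region inside Gimap1 (48741251 to 48741650), at 61.5%.

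At Gimap9 and Gimap7, DN 1 also held a peak, narrower than those of the DP lists. The Gimap9 region (chr6:48675651-48676650) is the widest of the cluster. Its peaks were 850 and 1000 bp wide in DP 1 and DP 2, while DN 1 had a pair of overlapping 300 bp peaks that spanned 400 bp and DN 2 had none. The peaks covered 300 promoter bases in each DP list and 266 in DN 1. Within DP 1 and DP 2 they stood at 22.4 and 16.3%. Within DN 1 the better peak stood at 64.6%.

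Gimap7, whose human protein hydrolyses GTP as a dimer, showed the same picture at chr6:48718301-48718950. The peak was 650 bp wide in DP 1 and 600 bp in DP 2, against 350 bp in DN 1 and none in DN 2. It stood at 18.5 and 12.2% of the DP lists. In DN 1 it had the largest p-value of the list, a value shared by 35.4% of that list's peaks. Past the far end of Gimap7, DP 1 alone held regions at 48725501 to 48725900 and 48727701 to 48728250, which stood at 70.9 and 29.7% of that list.

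The place shared by all 4 lists was not a promoter. It lay between Gimap7 and Gimap1 at chr6:48732651-48733500, with its midpoint 5972 bp before the Gimap1 start site and 8439 bp past the far end of Gimap7. The peak was 800 and 850 bp wide in the DP lists, against 550 and 500 bp in the DN lists. It was the best ranked Gimap peak in each of the 4 lists, at 8.24 and 8.89% of the DP lists and at 24.3 and 36.8% of the DN lists. In DN 2 it was the only peak of the cluster.

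**Figure D3:**
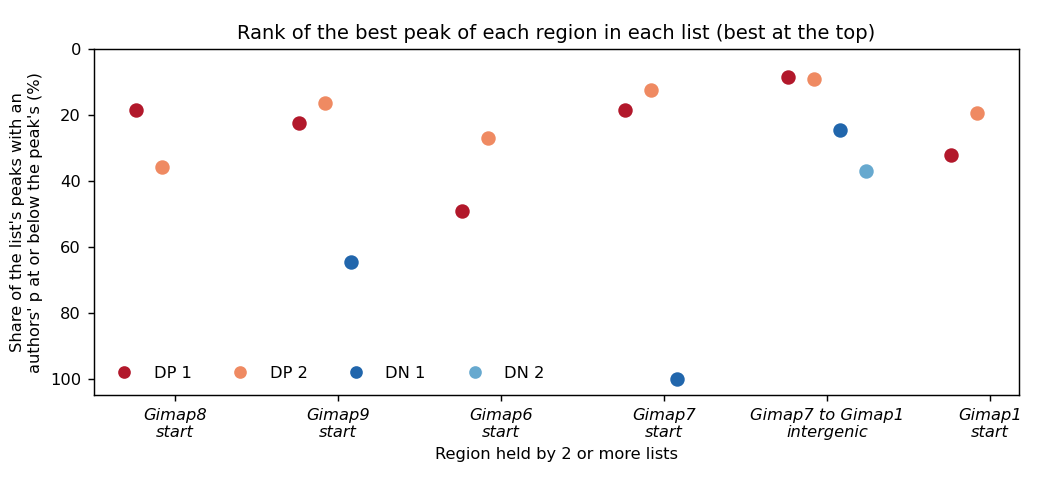
Points give, for the 6 regions held by 2 or more lists, the share of a list's peaks (%) with an authors' p-value at or below that of the region's best peak, so the best ranks are at the top. The intergenic place between Gimap7 and Gimap1 ranks best in every list, at 8.24 to 36.8%, and the DN 1 peaks at Gimap9 and Gimap7 stand at 64.6 and 100%.

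The other 3 genes had no peak over their promoter window in any list. Gimap4, whose loss in mice delays the death of T cells, had 1 peak, in DP 2, that lay 897 bp inside the gene (48685301 to 48685650) and carried the largest p-value of that list. Gimap3, which is close to Gimap5 in sequence and acts on survival and on mitochondrial DNA in mice, had a region inside the gene (48768401 to 48768950) and another 1324 bp before its start (48771951 to 48772400), both in DP 2 alone. The region inside the gene stood at 23.2% of that list. The region before the start was a pair of overlapping peaks, each with the largest p-value of the list. Gimap5, which peripheral T cells need to survive, had 0 assigned peaks in all 4 lists. The longest run of identical bases shared by the promoter windows of any pair of Gimap genes was 14 bases, and it was 7 bases for Gimap3 and Gimap5. How the authors treated reads that map to several places is not given in the sources used here.

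Assigned to the gene with the nearest span end, peaks numbered 2 and 1 for Gimap8 in the DP lists, against 0 and 0 in the DN lists. Gimap6 had 2 and 2 in DP, against 0 and 0 in DN. Gimap1 had 2 and 3 in DP, against 1 and 1 in DN, where the DN peak was the shared intergenic one. For these 3 of 8 genes both DP lists exceeded both DN lists, which was so for 22.7% of all protein-coding genes, and the opposite held for 0 of 8, against 2.97%. Gimap7 had 3 and 1 peaks in DP, against 1 and 0 in DN, and Gimap9 had 1 and 1, against 2 and 0, so their groups overlapped. The 3 genes became 5 without DP 1 or without DN 1, 4 without DP 2, and stayed 3 in number without DN 2. The share of 22.7% is for all lists and is no baseline for these counts. The median gene of the family had 1.5 more peaks in DP, against 0.5 over all genes.

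Promoter peaks followed the same pattern, with 5 open Gimap promoters in each DP list. A peak shared at least 1 base with the promoter of 5 of 8 Gimap genes (62.5%) in each DP list, against 2 in DN 1 (25%) and 0 in DN 2. Counting either end of the gene span, with a peak midpoint within 1000 bp, gave 5 and 6 genes in DP, against 2 and 0 in DN. By that measure, 10064 and 10706 of all 21883 protein-coding genes had a peak in the DP lists, against 8058 and 5668 in the DN lists. Over the 17491 protein-coding genes with a promoter in the table, the shares with a promoter peak were 45.6 and 47.6% in the DP lists and 35.3 and 24.8% in the DN lists. Promoters of 3 Gimap genes (Gimap8, Gimap6 and Gimap1) had a peak in both DP lists and neither DN list, a class of 9.94% in the genome. None was of the opposite class (0.537%) or held by all 4 lists (21.5%), and 3 had no peak at all (47.7%). The DP minus DN difference of 4 genes gave an exact permutation p of 0.333, again the smallest possible. In DP 1 the Gimap6 promoter rests on a peak with the largest p-value of the list. With lists halved to their best 50%, DP 1 lost Gimap6 and held 4 Gimap promoters, against 5 in DP 2. Each DN list then held 0, in DN 1 partly through file order among ties. The shares over all genes were then 40.5 and 45.0% in DP and 29.7 and 20.9% in DN. Whether the family differs from other genes was not tested.

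**Figure D4:**
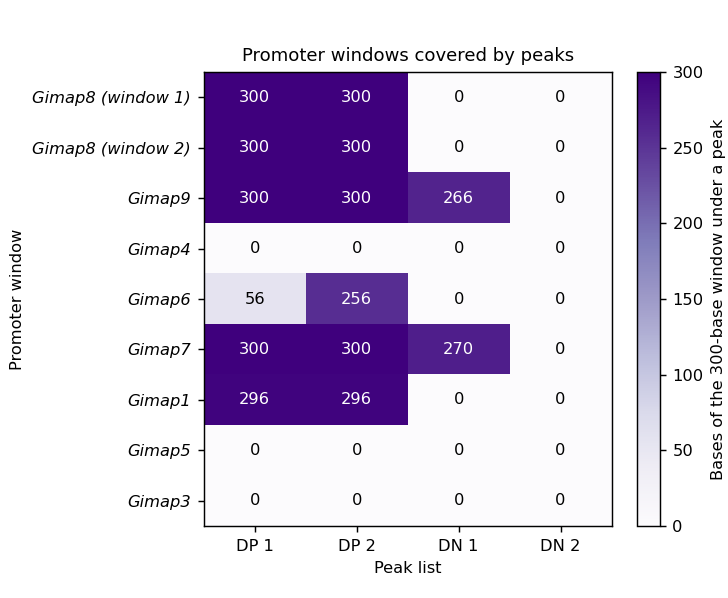
Each cell gives how many bases of a 300-base promoter window lay under a peak, for the 9 windows of the 8 Gimap genes in cluster order and the 4 lists. Windows of Gimap8, Gimap9, Gimap7 and Gimap1 are covered by 296 to 300 bases in both DP lists, while Gimap4, Gimap5 and Gimap3 have 0 in every list.

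Of the 14 regions, 5 shared a base with a promoter window and 9 did not, and these 9 include the place held by all 4 lists. Of the 6 regions held by at least 2 lists, 5 did so, against 25.1% of such regions in the genome. All 3 DP-only Gimap regions did so, against 20.2% of the 8006 DP-only regions. Of the 8 regions from a single list, 0 touched a promoter, near the 1.47% of such regions in the genome.

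Over the genome, windows of 184 kb held a median of 2 and 4 peaks in DP 1 and DP 2 and 2 in each DN list. In the 100 kb before the cluster, with Lrrc61, Rarres2, Repin1 and Zfp775, there were 3 peaks in each DP list, against 2 and 1 in DN. The first DP 1 peak of the cluster, over the Gimap8 start, is among them, because its midpoint falls just outside the gene span. In the 100 kb after it, with Tmem176a and Tmem176b, there were 1 and 3 peaks in DP, against 1 and 0 in DN. Outside the 30 kb flanks there were 0 DP-only and 0 DN-only regions on either side, classes of 7.44 and 2.51% over all regions of the genome. With so few regions there, these zeros do not set the cluster apart from its surroundings. A region at an end of Lrrc61 (48554451 to 48555150) was held by all 4 lists. Another at an end of Zfp775 (48601601 to 48602450) was held by DP 1, DP 2 and DN 1, and the rest each came from a single list.

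Gimap promoters are poor in CpG, the dinucleotide that is dense in the promoters of broadly expressed genes. Their 9 windows held 2 to 8 CpG, with a median of 4, against a median of 13 over 21254 protein-coding promoter windows. Their median GC content was 48%, against 56.3%. Such windows seldom carried a peak: of the 8724 windows with at most 8 CpG, 7.60 and 8.96% had one in DP 1 and DP 2, and 6.60 and 4.65% in DN 1 and DN 2. Of the 9 Gimap windows, 66.7% had one in each DP list, 22.2% in DN 1 and 0% in DN 2. This set of windows was chosen after the Gimap values were seen and is given as a description.

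**Figure D5:**
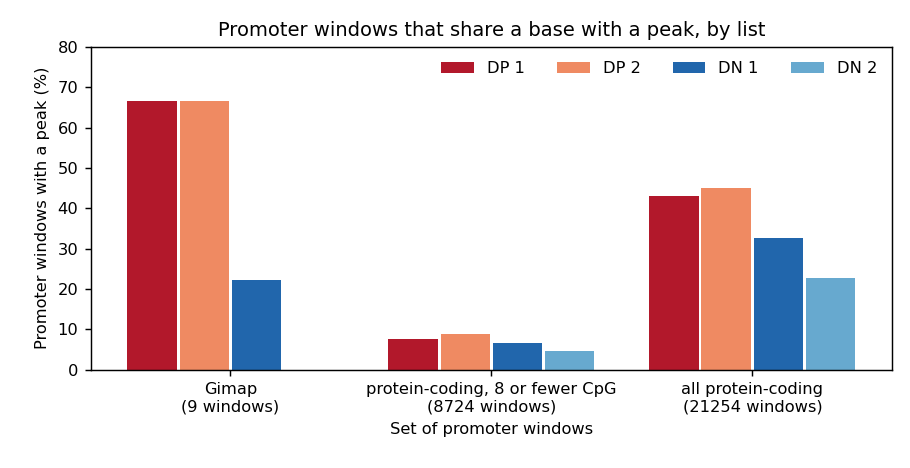
Bars give the share (%) of promoter windows that share at least 1 base with a peak of each list, for the 9 Gimap windows, the 8724 protein-coding windows with 8 or fewer CpG and all 21254 windows. Gimap windows stand at 66.7% in both DP lists, against 7.60 and 8.96% of the CpG-poor windows.

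The motif search used exact matches on both strands of the 9 windows. TTCNNNGAA, the site of STAT factors, occurred in windows of 4 Gimap genes (Gimap8, Gimap6, Gimap7 and Gimap3) and in 7.69% of all promoter windows. TGTGGT, bound by RUNX factors, occurred in Gimap1, Gimap7 and Gimap4 (15.0% of all windows). In Gimap7 it took bases 172 to 177 of the window, and in Gimap1 bases 156 to 161, both on the minus strand. GGAAGT, an ETS site, was in Gimap9, Gimap6, Gimap1 and Gimap5 (24.8%), with a pair of matches each in Gimap9 and Gimap5. CCACCC, the KLF motif, was in Gimap8, Gimap9, Gimap4, Gimap5 and Gimap3 (33.6%).

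Of the other motifs, CTTTGA (TCF and LEF factors) was in Gimap4 and Gimap7 (14.4%), where in Gimap7 it overlaps the STAT match. GGGCGG (SP factors) was in Gimap9 and Gimap7 (46.2%). CACCTG (E proteins) was in Gimap9 alone (19.7%), and Gimap3 alone held GTAAACA, the FOXO motif (3.01%), and TGGGAA, bound by RBPJ and Ikaros (24.5%), the last overlapping a KLF match. CAGCTG, also an E protein motif (15.6%), and AGATAA, the motif of GATA factors (9.65%), were in none of the 9 windows. None of the motifs was found in all the windows under a DP peak and in none of the others. The sequence of the intergenic place between Gimap7 and Gimap1 was not used here.

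Genes of lymphocyte survival and quiescence, the processes with which the Gimap family is linked, were set beside it as a list of 20. Of the 16 with a promoter window, 16 and 14 had a promoter peak in DP 1 and DP 2, against 11 and 8 in DN 1 and DN 2. Over all genes those shares were 45.6 and 47.6% in DP and 35.3 and 24.8% in DN. By assigned peaks, 12 of the 20 had more in both DP lists (22.7% of all genes) and 2 had more in both DN lists (2.97%). Tgfbr2, a receptor chain for TGF-beta, had 11 and 14 peaks in DP, against 1 and 0 in DN. Bcl2l11, which encodes the death-promoting protein Bim, had 7 and 14 in DP, against 3 and 0 in DN. The 2 with more in DN were S1pr1, the receptor for thymic exit, with 5 and 6 in DP against 12 and 12 in DN, and Il7r, the interleukin 7 receptor, with 1 and 0 in DP against 2 and 2 in DN. Bcl2, the classic survival factor, had 11 and 12 in DP, against 11 and 9 in DN, so its groups touched.

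The interferon-inducible GTPases (the Gbp, Irgm, Igtp, Iigp and Tgtp genes) are other GTPases whose genes lie in clusters. Of the 10 with a promoter window, 7 and 6 had a promoter peak in the DP lists, against 4 and 2 in the DN lists, where the shares over all genes are those just given. Among the 10, Gbp5 alone had a promoter peak in both DP lists and neither DN list, a class of 9.94% in the genome, and 2 (Gbp7 and Gbp2) had one in all 4 (21.5%). More assigned peaks in both DP lists were found for 5 of the 16 genes, near the 22.7% of all genes.

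The sorted stages were checked against marker genes, where 22.7% of all genes had more assigned peaks in both DP lists and 2.97% in both DN lists. Of 10 DP markers, 8 had more assigned peaks in both DP lists than in both DN lists, among them Cd8a with 5 and 6 in DP and 0 and 0 in DN. Of 8 DN markers, 4 had more in both DP lists and 0 had more in both DN lists. Il2ra, which encodes CD25, had 9 and 9 in DP, against 8 and 2 in DN, so the DN lists are not set apart by peaks at their own markers. Of 5 mature T cell markers, 2 had more peaks in both DP lists and 2 in both DN lists. Promoter peaks were found for 1 and 4 of the 7 DN markers with a promoter window in DP, against 3 and 0 in DN. The 6 such DP markers had 6 and 6, against 4 and 3, and the 2 mature T cell ones 2 and 1, against 2 and 2. Over all genes the shares were 45.6 and 47.6% in DP and 35.3 and 24.8% in DN, and 47.7% had none in any list. Promoter peaks were absent from all lists for the 3 B cell and 4 NK markers with a promoter window, and the 3 myeloid ones had 1 and 0 in DP, against 1 and 1 in DN. Elsewhere around these genes peaks were found. More assigned peaks in both DP lists were found for 2 of 6 B cell markers (Pax5, with 2 and 5 in DP against 1 and 1 in DN, and Ebf1), 2 of 6 myeloid markers (Spi1, with 2 and 2 against 0 and 0, and Itgam) and 2 of 4 NK markers (Eomes, with 7 and 10 against 1 and 0, and Gzmb). None of these 3 lists had a member with more in both DN lists. Cd79a, Ms4a1, Lyz2, Csf1r, Adgre1 and Ncr1 had 0 assigned peaks in all 4 lists. What part other cell types have in the Gimap values was not tested.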

How the data were processed

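Each of the 4 deposited lists holds 1 sample's peaks as chromosome, start, end and the authors' p-value, used here only for ranks within a list. Peaks start on a 50 bp grid and are 300 bp wide or more. The submitters' processing notes name the build mm10 and the tools Bowtie2 and Picard, with no version. PeakDEck is named in the deposited lists' names, and no source used here gives its settings.

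Sample titles gave groups and replicate numbers. The members, lists and tests were chosen with earlier results of these data known. On chromosomes 1 to 19, X and Y, peaks sharing at least 1 bp formed a region. A peak or region belongs to the protein-coding gene whose span end is nearest, up to 100 kb. Coordinates count from 1. Peak numbers per list were compared by an exact two-sided permutation test. The genes named are all Gimap genes, genes in the window and its flanks, members of fixed survival and interferon-inducible GTPase lists, and markers. Alternatives covered list length, flank, overlap, merging and leaving out lists. Region building gave the right class to 5000 of 5000 regions simulated for this comparison. Tools were Python 3.11.15 with pandas 2.3.3, numpy 2.4.6, scipy 1.17.1, Biopython 1.88 and matplotlib 3.10.9.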

Additional observations from a re-analysis of the deposited data

How the results depend on the processing

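The direction of the peak difference held in all settings tried. For the cluster with its flanks, DP minus DN was 8.5 peaks. It was 6.5 when lists were halved to their best 50% or limited to the shortest length, 8.5 with a flank of 10 kb, 10 with 100 kb, 8 with overlapping peaks of a list counted once (an alternative added after the data were seen), and 7 to 10 with 1 list left out. With the replicate number as a block the difference stayed 8.5, with an exact sign-flip p of 0.5, the smallest that 2 pairs allow. For the cluster alone it was 7, also under the block (exact sign-flip p = 0.5). Whether the replicate numbers pair the samples is not known. Over 107621 regions the deviations of same-numbered lists correlated at 0.021. That value cannot decide it, because the lists also differ in length. DP-only regions numbered 3, but 5 in the top 50% of each list, where DN 1 loses its peaks at Gimap9 (the better one only through file order among ties) and Gimap7, and 3 to 8 with 1 list left out (8 without DP 1, 6 without DP 2, 5 without DN 1). Regions in all lists numbered 1, but 2 with a flank of 100 kb, and 1 to 3 with 1 list left out, the highest without DN 2. Genes with more peaks in both DP lists numbered 3, but 5 in the top 50%, and 3 to 5 with 1 list left out (5 without DP 1 or DN 1). No genome share of these region and gene classes is given for the alternatives, so a higher count there is not read as an excess. DN-only regions numbered 0 in each of 11 alternatives. Of 48 values for single genes, 46 moved by no more than the spread between lists. The other 2 were Gimap6 with 1.5 more peaks in DP, against 2, in the top 50% and at the shortest length. Gene assignment uses no window, so flank settings gave it no value. Unknown depth limits every absence reported here, above all in DN 2, the shortest list.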
